A study of Mus musculus with 6 samples.

Results

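The DNA replication machinery of RAW264.7 cells was followed through 56 genes, taken by symbol from a list of proteins that license, unwind, copy and repackage DNA, out of 55401 genes counted. All 56 symbols matched 1 gene identifier each, and all 56 genes passed the filter on low counts. RAW264.7 is a mouse macrophage line from an ascites tumour induced by Abelson murine leukemia virus. The cells fell into 2 groups of 3 RNA-seq libraries: a Nop16 siRNA group, whose genotype tag is Nop16 KD, and a control siRNA group, whose genotype tag is WT. The treatment tag reads "no" in both groups, and the one treatment text, given for all 6 libraries alike, describes a 3-day transfection of siRNA against Nop16 with Lipofectamine RNAi Max, at 20 nM. No source used here says how the control cells were transfected, so a response to transfection cannot be told apart from one to the loss of Nop16. No label calls the replicates separate cultures. The p-values therefore cover just the spread among these libraries, which may be technical.

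Replication starts at origins bound by the origin recognition complex (ORC). With Cdc6 and Cdt1, ORC loads the ring-shaped MCM2-7 helicase onto DNA in G1, and geminin blocks reloading later in the cycle. The kinase Cdc7 with its partner Dbf4, together with Cdc45 and the GINS complex, turns the loaded ring into an active helicase, after which polymerases copy both strands and chromatin is rebuilt behind the fork. Many of these genes are transcribed in late G1 and S phase under E2F factors.

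Nop16, a nucleolar protein whose yeast counterpart takes part in assembly of the large ribosomal subunit, had 61, 72 and 84 counts in the Nop16 siRNA libraries, against 388, 437 and 402 in the control siRNA libraries, which left 22.4% of the control level (log2 fold change -2.16, SE 0.12, edgeR adjusted p = 2.94e-23). Library totals ran from 15601477 to 18635089 counts in the Nop16 siRNA group and from 19778237 to 23061922 in the control siRNA group. The 9 macrophage markers were all detected, with a summed level of 7566.4 to 8015.3 TPM (transcripts per 1000000, scaled by gene length) in Nop16 siRNA libraries and 4052.4 to 4413.9 TPM in control siRNA libraries. The largest part of that sum was Lyz2, at 4654.7 TPM after Nop16 siRNA and 1760.7 TPM in controls. The markers did not move one way: in edgeR 5 were higher, Ptprc (log2 fold change -0.13) and Fcgr1 (-0.36) were lower, and Spi1 and Adgre1 did not pass. The part of these shifts in the results on replication genes was not tested. The summed markers of T or NK cells, fibroblasts and epithelial cells reached at most 0.196 TPM in any library, and Cd3e, Cd8a, Nkg7, Col1a2, Col3a1 and Krt8 were at 0 in all 6. The 4 neutrophil markers summed to 1.92 to 4.27 TPM in Nop16 siRNA libraries and 3.01 to 5.24 TPM in control siRNA libraries.

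Replication genes were lower after Nop16 siRNA almost throughout. Of the 56, 50 (89.3%) were lower at an edgeR adjusted p below 0.05 and none (0) was higher. DESeq2 called 47 lower and 0 higher, and 0 members were higher in edgeR at an unadjusted p below 0.05. Over all 14269 genes tested, 22.4% were lower and 23.0% higher by the same rule. In 50 members all 3 Nop16 siRNA libraries lay below all 3 control siRNA libraries, as they did for 26.2% of all genes tested. The median log2 fold change of the members was -0.41, with an interquartile range of -0.53 to -0.26, where the median over all genes tested was 0.00. The largest fall was 0.76 on the log2 scale, in Dbf4, which stood at 59.1% of control. Tested against a minimum fold of 1.2, 29 members were lower, against 8.78% of all genes tested. Together the 56 genes held 0.323, 0.328 and 0.323% of counts in the Nop16 siRNA libraries, against 0.446, 0.442 and 0.441% in the control siRNA libraries. In bulk RNA, fewer cells in S phase and less of these transcripts per cell cannot be told apart.

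**Figure D1:**
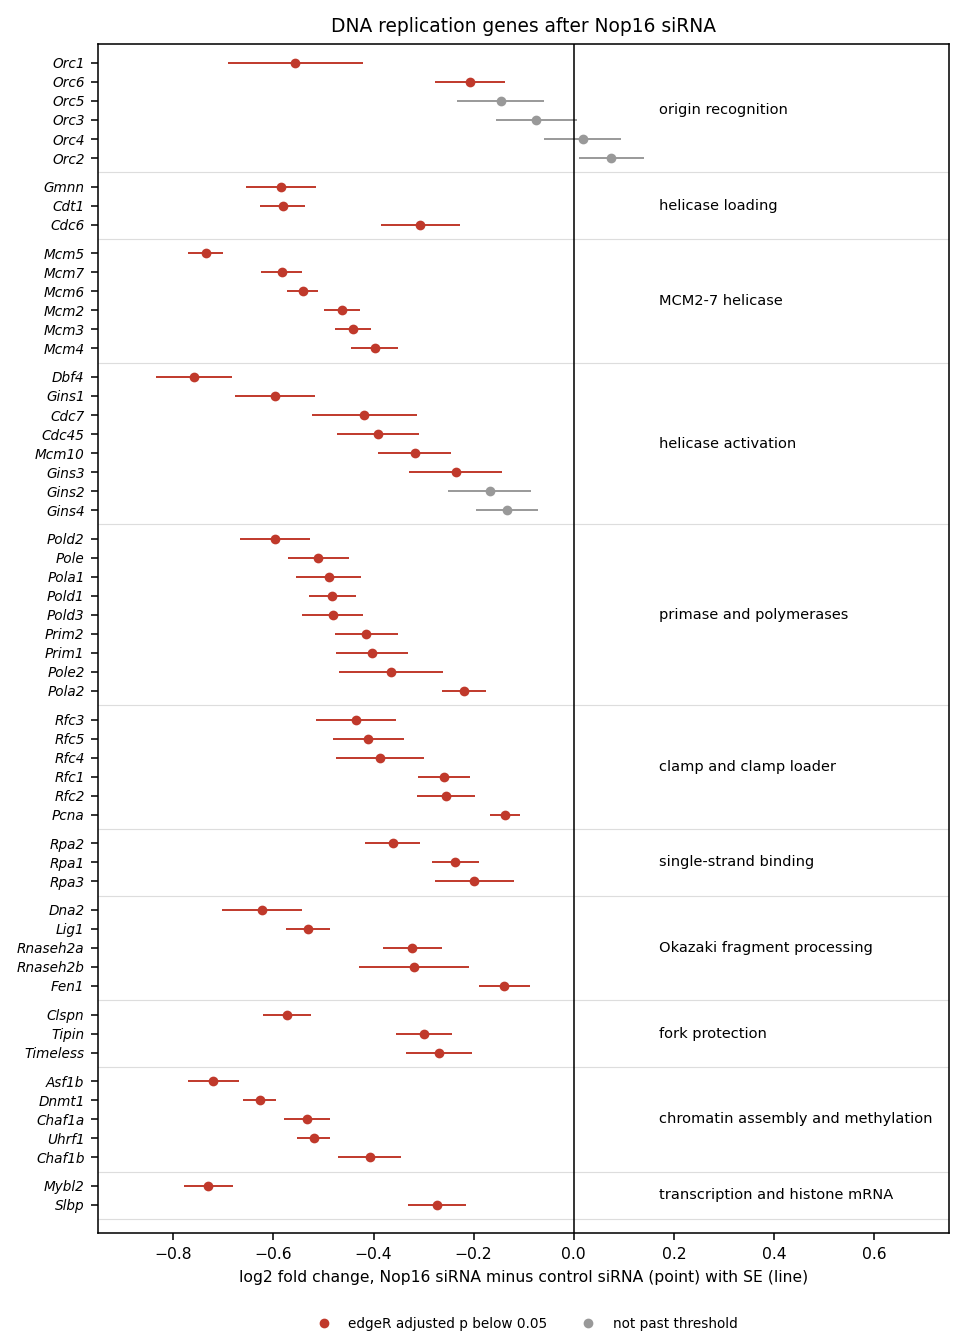
Log2 fold change (Nop16 siRNA minus control siRNA, horizontal axis) of the 56 replication genes, grouped by role from top to bottom; lines are 1 SE and grey points did not pass an edgeR adjusted p of 0.05. The 6 grey points are 4 ORC subunits and 2 GINS subunits, and the points furthest left are Dbf4 (-0.76), Mcm5 (-0.74) and Mybl2 (-0.73).

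The origin recognition complex was the main exception. Of its 6 subunits, Orc1 and Orc6 fell and the other 4 (Orc2, Orc3, Orc4 and Orc5) did not pass the test. Differences between subunits were not tested. Orc1, the ATPase subunit whose level is known to cycle in mammalian cells, stood at 6.01, 6.16 and 6.08 CPM (counts per 1000000) in Nop16 siRNA libraries and 9.62, 8.17 and 9.09 CPM in control siRNA libraries. It fell by 0.56 on the log2 scale (SE 0.135, edgeR adjusted p = 0.000464). Orc6, the small subunit outside the ATPase ring, had 29.2, 31.3 and 31 CPM after Nop16 siRNA and 37.1, 34.4 and 34.1 CPM in controls, a fall of 0.21 on the log2 scale (edgeR adjusted p = 0.0113). In both genes the groups did not overlap. The Orc6 call was lost without Nop16 siRNA replicate 1 (adjusted p = 0.0542) or without control siRNA replicate 1 (0.0675).

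Of the other subunits, Orc2, Orc3 and Orc4 sat close to their control levels. Orc5 stood at 90.4% of control, near the 90.9% of Pcna, which passed with a smaller SE (0.0295). Orc2 had 38.1, 37.9 and 36.4 CPM in Nop16 siRNA libraries and 37.2, 33.9 and 35.5 CPM in control siRNA libraries (log2 fold change 0.08, SE 0.0654, edgeR adjusted p = 0.37). Orc3 had 20.9, 23.4 and 23.8 CPM, against 23.9, 24.6 and 23.3 CPM in controls (-0.07, SE 0.0804, 0.478). Both pairs of groups overlapped. For Orc4 the 3 Nop16 siRNA libraries gave 25.7, 32.8 and 29.1 CPM, spanning the 29.2, 29.5 and 28 CPM of the controls, and its small difference of 0.02 (SE 0.0766, edgeR adjusted p = 0.877) changed sign under 3 of the alternatives. Orc5 had 17, 18.6 and 17.6 CPM after Nop16 siRNA and 20.8, 18.4 and 19.7 CPM in controls (-0.15, SE 0.0866, edgeR adjusted p = 0.17). A miss of the threshold does not show that these subunits were unchanged. Their SE of 0.07 to 0.09 leaves room for shifts larger than the SE around each estimate. For Orc5, that includes falls well beyond 0.15. Summed over the 6 subunits and scaled by length, ORC stood at 71.7 ± 3.03 TPM after Nop16 siRNA and 75.1 ± 2.35 TPM in controls (SD, n = 3 each).

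The loading factors fell together. Cdt1, which brings the helicase to ORC, had 74.4, 69.1 and 72.2 CPM in Nop16 siRNA libraries and 111, 106 and 106 CPM in control siRNA libraries (log2 fold change -0.58, SE 0.0446, edgeR adjusted p = 2.56e-17). Its inhibitor geminin (Gmnn) had 26.2, 25.3 and 26.6 CPM, against 37.4, 39.2 and 40.5 CPM in controls (-0.58, SE 0.0699, 1.98e-10). Neither gene had a Nop16 siRNA library near its control range. Because activator and inhibitor fell alike, their ratio within a library showed no shift beyond the spread: Cdt1 had 2.84, 2.73 and 2.71 times the counts of Gmnn after Nop16 siRNA and 2.96, 2.69 and 2.62 times in controls (log2 difference 0.00, SE 0.0579, exact two-sided permutation p = 0.9). Cdc6, the ATPase that works with ORC in loading, fell less, at -0.31 (SE 0.0786, edgeR adjusted p = 0.000939).

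All 6 subunits of the MCM2-7 helicase were lower, by 0.40 to 0.74 on the log2 scale, and each had non-overlapping groups. Mcm5 (chr8:75109569-75128439, plus strand; GRCm38 throughout) fell most, with 122, 124 and 120.2 CPM in Nop16 siRNA libraries and 207, 202 and 199.8 CPM in control siRNA libraries. That is 60.1% of control (log2 fold change -0.74, SE 0.0357, edgeR adjusted p = 4.32e-26). Mcm7 (chr5:138164583-138172422, minus strand) had 89.1, 88.4 and 84.4 CPM after Nop16 siRNA and 130.0, 129 and 134 CPM in controls (-0.58, SE 0.0408). Its gene hosts the microRNAs Mir25 and Mir93, whose models cover 3.9% of its exonic length on the same strand. Mcm6 (chr1:128331590-128359664, minus strand), the most abundant of the 6, had 222, 229.5 and 230.5 CPM against 329.9, 332 and 330.5 CPM in controls (-0.54, SE 0.0313). Mcm2 (chr6:88883474-88898780, minus strand) gave 154, 153 and 143 CPM after Nop16 siRNA and 213, 200.1 and 207 CPM in controls (-0.46, SE 0.0362). In each of these genes the 3 libraries of a group lay close together and far from those of the other group. Mcm3 (chr1:20802968-20820312, minus strand) had 152, 167 and 161 CPM, against 209, 219 and 224 CPM in control siRNA libraries (-0.44, SE 0.0361), and Mcm4 (chr16:15623897-15637400, minus strand) had 64.1, 64.6 and 64 CPM, against 83.9, 85.9 and 84.1 CPM (-0.40, SE 0.0468). The edgeR adjusted p of all 6 was 1.22e-10 or lower.

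**Figure D2:**
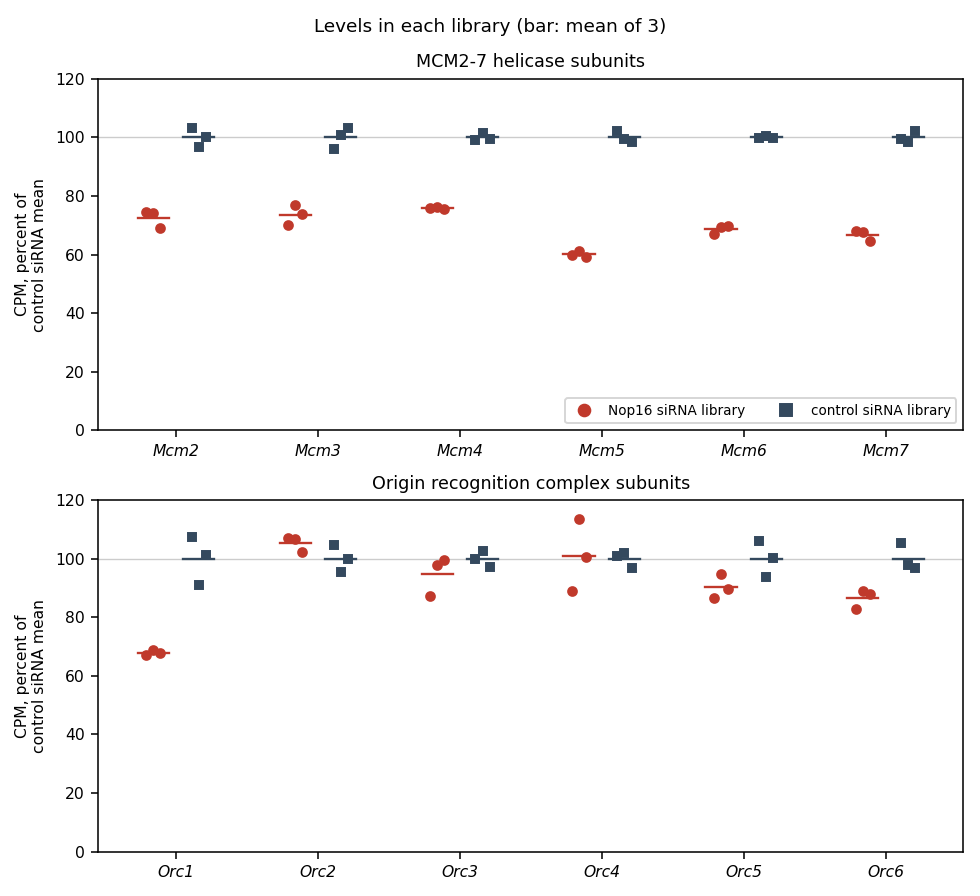
CPM of each library as a percent of the control siRNA mean, for the MCM2-7 subunits (top) and the ORC subunits (bottom); red circles are Nop16 siRNA libraries, dark squares control siRNA libraries, and bars the mean of 3. Every MCM subunit shows 2 separate bands, with Mcm5 lowest at about 60.1% of control, while the Orc2, Orc3, Orc4 and Orc5 groups overlap.

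The helicase subunits bind in equal numbers, but their transcripts were not equal. Scaled by length, they ran from 37.4 TPM (Mcm4) to 101.7 TPM (Mcm6) after Nop16 siRNA and from 47.8 TPM (Mcm4) to 143.7 TPM (Mcm6) in controls, so the most abundant exceeded the least by 2.72 and 3.01 times. Their summed level was 378.2 ± 9.87 TPM after Nop16 siRNA and 532.1 ± 4.62 TPM in controls (SD, n = 3 each), or 71.1% of control.

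Helicase activation gave a wider range. Dbf4, the regulatory subunit that switches on the Cdc7 kinase, had the largest fall of all members, with 20, 19.1 and 20 CPM in Nop16 siRNA libraries and 33.6, 34.1 and 32.3 CPM in control siRNA libraries (log2 fold change -0.76, SE 0.0759, edgeR adjusted p = 6.07e-13). Cdc7, the kinase itself, had 13.2, 13.7 and 9.94 CPM, against 17.6, 16.5 and 14.9 CPM in controls (-0.42, SE 0.105, 0.000721). Both groups were separate in each gene, and Cdc7 was the more scattered, with its lowest value in Nop16 siRNA replicate 3. The Dbf4 to Cdc7 ratio of counts was 1.51, 1.39 and 2.01 after Nop16 siRNA and 1.91, 2.06 and 2.17 in controls. The groups overlapped through the same replicate 3 (log2 difference -0.34, SE 0.17, exact permutation p = 0.2).

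The 4 GINS subunits, which form one complex, did not move alike. Gins1 had 17.6, 20 and 20.4 CPM in Nop16 siRNA libraries and 29.5, 29.2 and 29.3 CPM in controls (log2 fold change -0.60, SE 0.0795, edgeR adjusted p = 4.38e-09). Gins2 had 24.6, 20.1 and 22.6 CPM, against 24.9, 23.4 and 27.2 CPM (-0.17, SE 0.0829, 0.0949), and its groups overlapped. It passed without Nop16 siRNA replicate 1 (edgeR adjusted p = 0.0341) or without control siRNA replicate 2 (0.0447). On the opposite strand, exons of Gse1 cover 67.3% of the Gins2 exonic length, and the counts were made by strand. Gins4 had 37.5, 38.2 and 40.7 CPM after Nop16 siRNA and 42.8, 41 and 44.1 CPM in controls, separate by a small margin but short of the threshold (-0.13, SE 0.0619, edgeR adjusted p = 0.0743). It passed with scaling by library size only (0.0345) and with protein-coding genes only (0.0426). Gins3 passed narrowly (-0.24, edgeR adjusted p = 0.0329) and did not pass in DESeq2 (0.0766), with no filter (0.0551), or without Nop16 siRNA replicate 1 (0.083), Nop16 siRNA replicate 3 (0.0835), control siRNA replicate 2 (0.0961) or control siRNA replicate 3 (0.0931). Cdc45, which joins MCM2-7 and GINS in the active helicase, fell by 0.39 and Mcm10, needed to activate it, by 0.32 on the log2 scale (edgeR adjusted p = 5.54e-05 and 0.000287).

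All 9 members that encode subunits of the replicative polymerases and primase were lower, and their median log2 fold change was -0.48. Pold2, the second subunit of polymerase delta on the lagging strand, had 27.3, 26.4 and 25.1 CPM in Nop16 siRNA libraries and 39.6, 40.1 and 39.2 CPM in control siRNA libraries (log2 fold change -0.60, SE 0.0692, edgeR adjusted p = 7.85e-11). Pole, the catalytic subunit of polymerase epsilon on the leading strand, had 35.1, 38.7 and 35.1 CPM, against 51.4, 54.2 and 49.5 CPM in controls (-0.51, SE 0.0607, 1.69e-10). Pold1, the catalytic subunit of polymerase delta, had 80, 75.8 and 69.6 CPM after Nop16 siRNA and 101, 106 and 107 CPM in controls (-0.48, SE 0.0463). The 2 catalytic subunits kept their proportion within the spread: the Pole to Pold1 count ratio was 0.439, 0.511 and 0.504 after Nop16 siRNA and 0.507, 0.513 and 0.461 in controls (exact permutation p = 0.6). Pold3 (-0.48), Pola1 (-0.49), the primase subunits Prim1 (-0.40) and Prim2 (-0.41), and Pole2 (-0.36) lay close together. Pola2, the B subunit of polymerase alpha, fell least of the 9, at -0.22 (edgeR adjusted p = 3.69e-05). Further subunits, Pold4, Pole3 and Pole4, are not among the 9 and belong to another list. Pold4 (-0.14, edgeR adjusted p = 0.0619) and Pole3 (0.17, 0.0883) did not pass, and Pole4 was lower (-0.15, 0.0159). For Pole3 all Nop16 siRNA libraries lay above all control siRNA libraries.

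The sliding clamp and its loader fell by smaller steps. Pcna, the clamp that tethers polymerases to DNA, was the most abundant member and among the least changed, with 375, 370.2 and 378 CPM in Nop16 siRNA libraries and 414, 418 and 404 CPM in control siRNA libraries. Its groups were separate, at 90.9% of control (log2 fold change -0.14, SE 0.0295, edgeR adjusted p = 8.77e-05). Multi-mapped fragments were counted, and the count of the pseudogene Pcna-ps2 equalled 4.8 to 5.49% of the Pcna count in each library. Copies under other names were not looked for. How many Pcna fragments came from such copies was not tested. Of the 5 clamp loader subunits, Rfc3 had 20.7, 18.5 and 20.1 CPM after Nop16 siRNA and 26.4, 26.5 and 27.2 CPM in controls (-0.44, SE 0.0804), and Rfc5 had 27, 30.3 and 31.5 CPM, against 41.1, 36.2 and 41.2 CPM (-0.41, SE 0.0706). Both had separate groups. Rfc4 (-0.39), Rfc1 (-0.26) and Rfc2 (-0.26) were lower too, and the edgeR adjusted p of the 6 clamp and loader genes was 0.000213 or lower.

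Genes of single-strand binding proteins had the smallest median fall (0.24 on the log2 scale) of the role groups in which every gene passed. Rpa2 had 44.6, 43.2 and 43 CPM in Nop16 siRNA libraries and 55.2, 57.3 and 55.5 CPM in controls (log2 fold change -0.36, SE 0.0555, edgeR adjusted p = 1.5e-07). Rpa1, the large DNA-binding subunit, had 79.2, 75.4 and 71.7 CPM, against 89.7, 87.6 and 89.1 CPM (-0.24, SE 0.0461, 1.91e-05). Rpa3, the smallest subunit, passed only narrowly (-0.20, edgeR adjusted p = 0.0336). It did not pass in DESeq2 (0.0654), after thinning to equal depth (0.0713), or without Nop16 siRNA replicate 3 (0.149), control siRNA replicate 1 (0.102) or control siRNA replicate 2 (0.0653).

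Among the enzymes that finish Okazaki fragments, Dna2, a nuclease and helicase, had 19.6, 23.4 and 19.7 CPM in Nop16 siRNA libraries and 34.4, 32.4 and 29.6 CPM in control siRNA libraries (log2 fold change -0.62, SE 0.0799, edgeR adjusted p = 1.51e-09). Lig1, the ligase that seals the fragments, had 76.2, 79.3 and 82.9 CPM, against 112, 119 and 114 CPM in controls (-0.53, SE 0.0435, 3.85e-16). Both were well separated. The flap nuclease Fen1 moved little: its libraries gave 70, 63 and 68.5 CPM after Nop16 siRNA and 78.6, 73.9 and 69 CPM in controls, and the groups overlapped (-0.14, SE 0.0512, edgeR adjusted p = 0.0222). The Fen1 call was lost in DESeq2 (0.0658), after thinning to equal depth (0.0711), and without Nop16 siRNA replicate 2 (0.177), control siRNA replicate 1 (0.203) or control siRNA replicate 2 (0.054). Opposite-strand exons of Tmem258 and Gm10143 cover 84.2% of its exonic length. The RNase H2 genes Rnaseh2a and Rnaseh2b, which clear RNA from DNA, both fell by 0.32 on the log2 scale (edgeR adjusted p = 5.75e-06 and 0.0141). The remaining subunit gene, Rnaseh2c, belongs to another list and was higher (0.18, edgeR adjusted p = 0.0177). That call was lost without some single libraries, as given below.

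Of the fork protection genes, Clspn (claspin), which carries the checkpoint signal from stalled forks, had 59.3, 62.6 and 63.6 CPM in Nop16 siRNA libraries and 90.7, 92.9 and 92.6 CPM in control siRNA libraries (log2 fold change -0.57, SE 0.047, edgeR adjusted p = 3.74e-16). Its partners fell less. Tipin had 42.5, 47.2 and 45.8 CPM, against 53.6, 56.5 and 57 CPM in controls (-0.30, SE 0.0564, 1.02e-05), and Timeless had 31.2, 33.9 and 32.4 CPM, against 37.7, 40 and 39.7 CPM (-0.27, SE 0.066, 0.000549). Timeless and Tipin form a dimer, and their count ratio was 0.734, 0.717 and 0.706 after Nop16 siRNA and 0.705, 0.709 and 0.696 in controls, with overlapping groups (exact permutation p = 0.2).

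Chromatin genes that act behind the fork showed some of the larger falls. Asf1b, a histone H3-H4 chaperone, had 46.7, 45.9 and 47.6 CPM in Nop16 siRNA libraries and 79.7, 76.8 and 74.5 CPM in control siRNA libraries, or 60.7% of control (log2 fold change -0.72, SE 0.0513, edgeR adjusted p = 1.24e-18). Dnmt1, the maintenance DNA methyltransferase, had 204, 201 and 209 CPM, against 324, 311 and 314 CPM in controls (-0.63, SE 0.0321, 5.16e-25). Uhrf1, which brings Dnmt1 to newly copied DNA, fell by 0.52 on the log2 scale (edgeR adjusted p = 8.85e-21). Chaf1a, the large subunit of the CAF-1 assembly factor, had 64.6, 65.6 and 65.9 CPM after Nop16 siRNA and 96.7, 91.8 and 95.4 CPM in controls (-0.53, SE 0.046), and its partner Chaf1b had 33.3, 32.9 and 36.1 CPM, against 45.9, 44.5 and 45.5 CPM (-0.41, SE 0.0627). The Chaf1a to Chaf1b count ratio was 1.94, 2.0 and 1.83 after Nop16 siRNA and 2.11, 2.06 and 2.10 in controls. It was the one of the 5 partner ratios whose groups did not overlap (log2 difference -0.12, SE 0.0384, exact permutation p = 0.1, the smallest that 3 against 3 libraries allow, and 0.333 after Benjamini-Hochberg adjustment over the 5, the lowest of their adjusted values). Exons of Ubxn6 on the opposite strand cover 52.5% of the Chaf1a exonic length.

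The last 2 members sit outside the fork. Mybl2 (chr2:163054687-163084688, plus strand) encodes B-Myb, a transcription factor of the S and G2 phases, and had 54.4, 53.5 and 50.1 CPM in Nop16 siRNA libraries and 88.9, 86.8 and 86.2 CPM in control siRNA libraries (log2 fold change -0.73, SE 0.0492, edgeR adjusted p = 1.15e-19). Slbp, which binds the stem-loop of histone mRNAs, had 53, 46.9 and 47.9 CPM, against 62, 54.2 and 62.5 CPM in controls (-0.27, SE 0.0579, 7.56e-05). The groups were separate in both, with the fall of Mybl2 the larger.

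**Figure D3:**
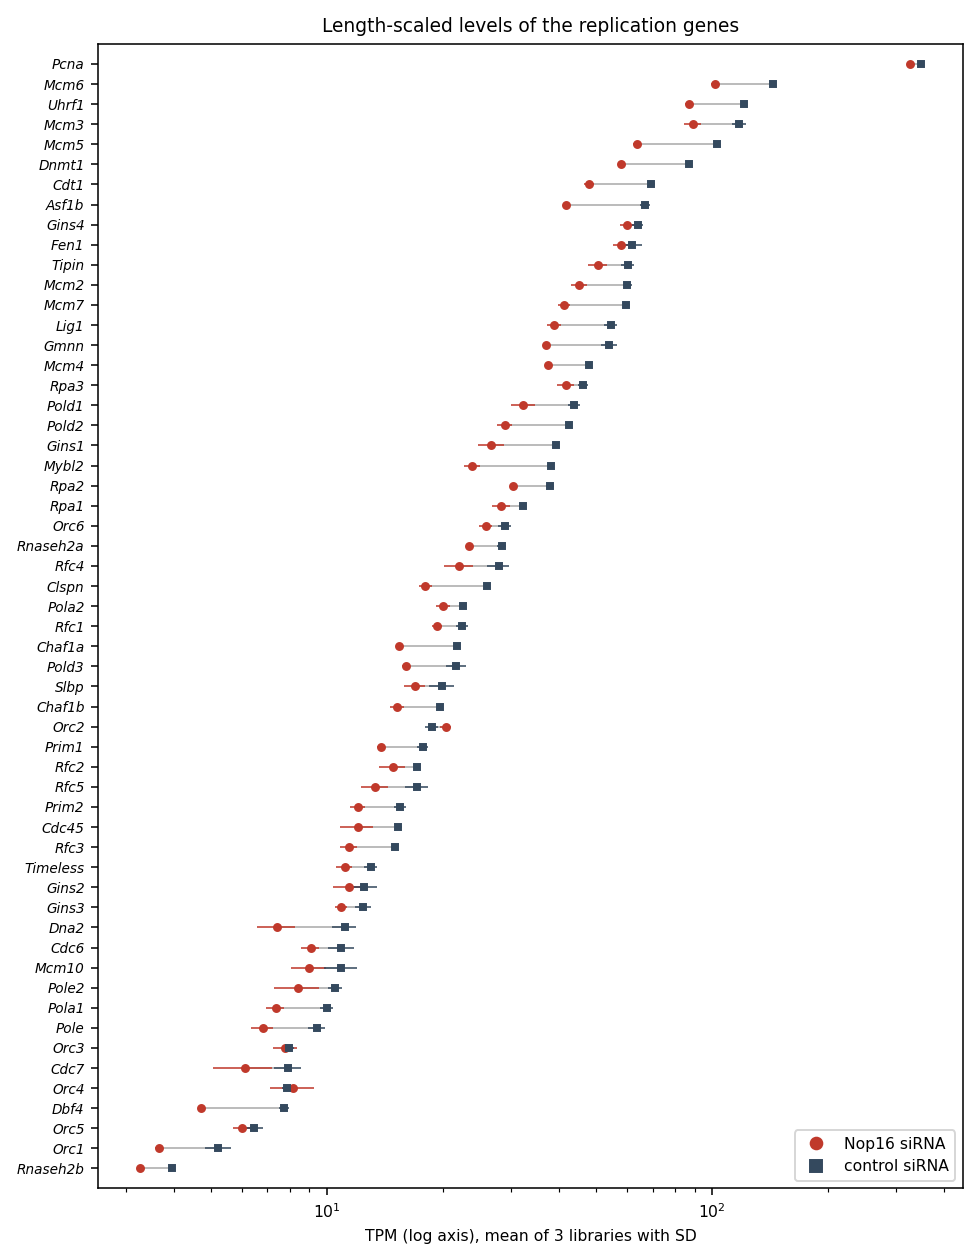
Length-scaled level (TPM, log axis) of each replication gene, ordered by its control siRNA mean; red circles are the Nop16 siRNA mean, dark squares the control siRNA mean, coloured lines the SD over 3 libraries, and grey lines join the groups. Every red circle except those of Orc2 and Orc4 lies left of its square, and the order of the genes is almost the same in both groups, with Pcna highest and Rnaseh2b lowest.

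The order of abundance among members was much alike in both groups. Scaled by length, Pcna led with 325.9 ± 1.09 TPM after Nop16 siRNA and 347.9 ± 6.57 TPM in controls, and Rnaseh2b closed the list with 3.26 ± 0.0416 and 3.95 ± 0.0426 TPM (SD, n = 3 each). Across the 56 genes the log2 TPM of the Nop16 siRNA group followed that of the control siRNA group with r = 0.99 and rho = 0.992. Genes are not independent replicates, so this only describes the list. Neither the control level (r = -0.219, rho = -0.235 on log2 TPM) nor exonic length (r = -0.0679, rho = -0.0599) ordered the log2 fold changes of the 56 genes closely. Summed TPM over all members was 1805.6 ± 21.4 after Nop16 siRNA and 2301.7 ± 8.76 in controls, or 78.4% of control. By the same sum, Pold1, Pold2 and Pold3 of polymerase delta stood at 71.6% of control, and Pole with Pole2 of polymerase epsilon at 76.5%. Polymerase alpha with primase stood at 80.7%, the RFC subunits at 81.1%, GINS at 85.1%, RPA at 86.1% and ORC at 95.5%. The delta and epsilon sums left out Pold4 (63.1 TPM after Nop16 siRNA, 67.6 TPM in controls), Pole3 (24.0 and 20.7 TPM) and Pole4 (42.2 and 45.5 TPM). They therefore do not stand for the whole complexes.

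E2F factors bind promoters of many replication genes, so the promoter windows of the members were searched for E2F words. Windows of 300 bases, from 250 before to 50 after each start, came from RefSeq on GRCm38.p6 and were found for 46 of the 56 members. The words were TTTCCCGC, TTTGGCGC, TTTCGCGC and TTTGCCGC on either strand, and 2 words on opposite strands can overlap. At least 1 word was present in 18 of the 46 members (39.1%), against 4.86% of the 9444 tested genes with a window and 2.6% of all 27025 genes with one. A gene counts once if any of its windows holds the word. The members with a word had a median log2 fold change of -0.50, and 17 of the 18 were lower. The 28 without one had a median of -0.34, and 25 were lower, so the ranges lay largely on top of each other (-0.74 to -0.07 with a word, -0.76 to 0.08 without). The word CCAAT occurred in 28 of the 46 members (60.9%), against 43.3% of tested genes and 41.1% of all genes with a window. TTTGAA, the cell cycle homology region of G2 and M phase genes, occurred in 9 (19.6%), above the 14.7% of tested genes and below the 20.2% of all genes with a window. A match describes the letters only and is no evidence that a factor binds there.

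The E2F words of 10 members, 9 that fell and 1 that did not pass the test, are shown to let their settings be compared, each as 1 word in capitals (the first where a gene holds several, along its strand) with up to 11 bases on either side, read 5′ to 3′ along the gene's own strand. Capitals that begin with GCG are the word on the opposite strand.
Mcm5 (chr8:75109345-75109374, plus strand): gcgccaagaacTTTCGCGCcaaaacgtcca
Mcm6 (chr1:128359797-128359826, minus strand): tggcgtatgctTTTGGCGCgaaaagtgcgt
Mcm7 (chr5:138172030-138172059, minus strand): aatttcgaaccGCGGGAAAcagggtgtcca
Orc1 (chr4:108579416-108579445, plus strand): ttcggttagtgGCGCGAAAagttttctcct
Cdt1 (chr8:122568036-122568064, plus strand): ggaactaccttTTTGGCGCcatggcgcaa
Clspn (chr4:126556990-126557019, plus strand): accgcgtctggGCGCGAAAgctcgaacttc
Lig1 (chr7:13278841-13278870, plus strand): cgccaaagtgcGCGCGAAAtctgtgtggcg
Pola1 (chrX:93632275-93632304, minus strand): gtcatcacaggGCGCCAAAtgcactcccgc
Rfc3 (chr5:151651200-151651229, minus strand): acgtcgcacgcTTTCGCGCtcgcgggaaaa
Orc3 (chr4:34614965-34614994, minus strand): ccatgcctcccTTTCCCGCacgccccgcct

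Orc3, the last of these, is the one member with a word that did not pass the test. In Mcm5 and in Mcm6 a pair of words on opposite strands overlaps. In Rfc3 a word lies just before the annotated start and another begins at it.

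**Figure D4:**
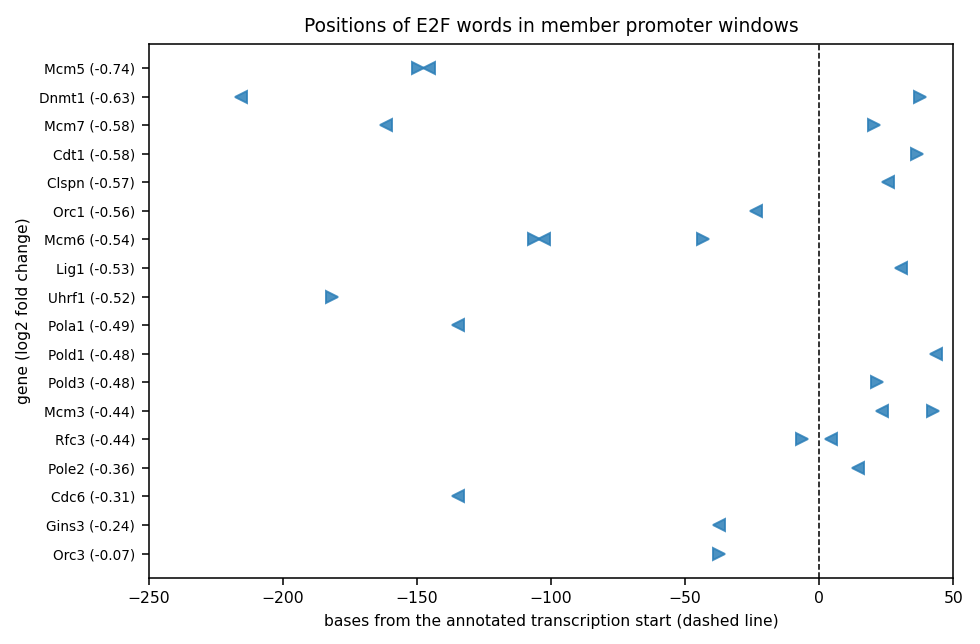
Midpoints of the E2F words relative to the annotated transcription start (dashed line, in bases) for the 18 members that hold one, ordered from the largest fall at the top; triangles point right for words on the gene's strand and left for the opposite strand. Words occur on both sides of the start, the furthest beginning 219 bases before it in Dnmt1, with no common position.

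The 3 promoter windows below set the MCM subunit with the largest fall beside a member with a like fall and no E2F word, and beside an ORC subunit that did not pass the test. Mcm5 (chr8:75109259-75109558, plus strand) has its overlapping word pair in capitals. Mybl2 (chr2:163054385-163054684, plus strand) holds none of the 4 words, and its capitals mark GGCGGGA, a core shared by some E2F sites that was searched only after this window had been read. The Mcm5 window holds 1 GGCGGGA as well, left in lower case. Orc2 (chr1:58505060-58505359, minus strand) holds neither and is all in lower case.
Mcm5: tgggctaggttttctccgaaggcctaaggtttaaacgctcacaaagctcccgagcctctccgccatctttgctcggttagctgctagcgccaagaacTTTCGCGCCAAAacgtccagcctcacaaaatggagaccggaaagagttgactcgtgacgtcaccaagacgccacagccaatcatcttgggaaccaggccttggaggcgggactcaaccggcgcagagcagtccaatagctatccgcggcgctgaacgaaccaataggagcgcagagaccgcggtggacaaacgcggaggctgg
Mybl2: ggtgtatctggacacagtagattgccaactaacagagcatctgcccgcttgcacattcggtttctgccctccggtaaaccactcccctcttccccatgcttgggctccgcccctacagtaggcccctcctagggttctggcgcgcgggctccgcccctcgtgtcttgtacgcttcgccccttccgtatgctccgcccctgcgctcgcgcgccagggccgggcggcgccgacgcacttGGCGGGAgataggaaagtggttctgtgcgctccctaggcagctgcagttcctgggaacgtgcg
Orc2: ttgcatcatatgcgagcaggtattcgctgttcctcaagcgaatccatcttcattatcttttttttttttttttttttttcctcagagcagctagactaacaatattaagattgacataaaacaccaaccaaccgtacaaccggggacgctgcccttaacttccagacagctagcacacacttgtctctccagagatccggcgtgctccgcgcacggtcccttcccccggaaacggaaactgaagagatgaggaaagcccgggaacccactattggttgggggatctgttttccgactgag

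GGCGGGA occurred on either strand in 20 of the 46 members (43.5%), against 24.1% of tested genes and 12.7% of all genes with a window. It can overlap TTTCCCGC read on the other strand. One or the other kind of word was in 30 members (65.2%), against 26.7% of tested genes. The 20 members with GGCGGGA had a median log2 fold change of -0.43, and 19 were lower. The 26 without it had a median of -0.38, and 23 were lower. The ranges lay largely on top of each other (-0.74 to 0.02 with it, -0.76 to 0.08 without). Orc4, which did not pass the test, holds GGCGGGA.

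Most other replication genes were lower too. In a further list of 52 fork, origin and checkpoint genes, 51 were matched. Of these, 36 (70.6%) were lower, 5 higher and 10 not past the threshold, with a median log2 fold change of -0.36. The shares among all genes tested were 22.4% lower and 23.0% higher. Esco2, which acetylates cohesin during S phase, stood at 14.8 ± 0.885 CPM after Nop16 siRNA and 30.1 ± 1.69 CPM in controls (log2 fold change -1.02), Top2a, the topoisomerase that untangles sister DNA, at 239 ± 6.54 CPM after Nop16 siRNA and 466 ± 7.94 CPM in controls (-0.96), and Fbxo5, an inhibitor of the anaphase-promoting complex, at 17.8 ± 0.858 CPM after Nop16 siRNA and 32.2 ± 0.524 CPM in controls (-0.86). The edgeR adjusted p of these 3 was 2.13e-14 or lower. Zranb3, a fork remodelling enzyme, went the other way at 209.9 ± 1.55 CPM after Nop16 siRNA and 66.3 ± 3.8 CPM in controls (1.66, edgeR adjusted p = 6.1e-41) and was by far the largest rise in that list. Ddb1 (0.15), the translesion polymerase gene Polk (0.35), Mcm9 (0.26) and Rnaseh2c (0.18) were higher by small steps. The Mcm9 call was lost in DESeq2 (adjusted p = 0.0564) and without Nop16 siRNA replicate 2 (0.167), control siRNA replicate 1 (0.0894) or control siRNA replicate 3 (0.0936). The Rnaseh2c call was lost without Nop16 siRNA replicate 1 (0.134), control siRNA replicate 1 (0.0993) or control siRNA replicate 2 (0.0528). Without control siRNA replicate 1, 3 genes of the list were higher.

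Upstream regulators and nucleotide supply showed the same lean, beside 22.4% lower and 23.0% higher over all genes tested. In a list of 18 genes of E2F and pocket proteins, which also holds Foxm1, 13 (72.2%) were lower and 0 higher in edgeR, with a median of -0.36. At an unadjusted p below 0.05, 1 was higher, the pocket protein gene Rbl2 (0.13, edgeR adjusted p = 0.0529). E2f2, an activating E2F, was at 29.2 ± 2.41 CPM after Nop16 siRNA and 63.3 ± 2.01 CPM in controls (-1.12), the mitotic factor Foxm1 at 54.5 ± 2.32 CPM after Nop16 siRNA and 108 ± 3.41 CPM in controls (-0.99), the pocket protein gene Rbl1 at 75.2 ± 2.97 CPM after Nop16 siRNA and 125 ± 2.79 CPM in controls (-0.73) and E2f8, a repressive E2F, at 38.9 ± 2.75 CPM after Nop16 siRNA and 63.9 ± 1.34 CPM in controls (-0.71), each with an edgeR adjusted p of 1.23e-16 or lower. E2f1, another activating E2F and named here after its values were seen, stood at 77.2 ± 3.96 CPM after Nop16 siRNA and 80 ± 2.74 CPM in controls and did not pass (-0.05, edgeR adjusted p = 0.379). Of 18 nucleotide supply genes, 12 (66.7%) were lower and 2 higher, with a median of -0.21. Tyms (-0.73), Rrm2 (-0.63), Dut (-0.61) and Tk1 (-0.53), which make or guard the DNA precursors, fell most. Nme1 (0.39) and Impdh1 (0.36) rose. Of 13 G1/S cyclins, kinases and inhibitors, 10 (76.9%) were lower and 3 higher, with a median of -0.21. The share higher was near the 23.0% of all genes tested. The S and G2 cyclin Ccna2 was at 94.7 ± 3.23 CPM after Nop16 siRNA and 191 ± 11.7 CPM in controls (-1.01), and the CDK inhibitor genes Cdkn2c (-0.93) and Cdkn1b (-0.39) fell. Ccnd2 (0.49), Cdkn1a (0.30), which encodes the CDK inhibitor p21, and Cdk6 (0.12) rose.

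Mitotic genes were lower as well. All 18 of a reference list were lower, where 22.4% of all genes tested were. Their median log2 fold change was -0.97, from -1.31 (the spindle kinesin Kif11) to -0.63 (Cdk1). The smallest fall in that list exceeded the median member's fall of 0.41. Ccnb2 (-1.27), Bub1b (-1.15) and Plk1 (-1.13) followed Kif11. The difference between these lists was not tested, and the same libraries gave both.

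**Figure D5:**
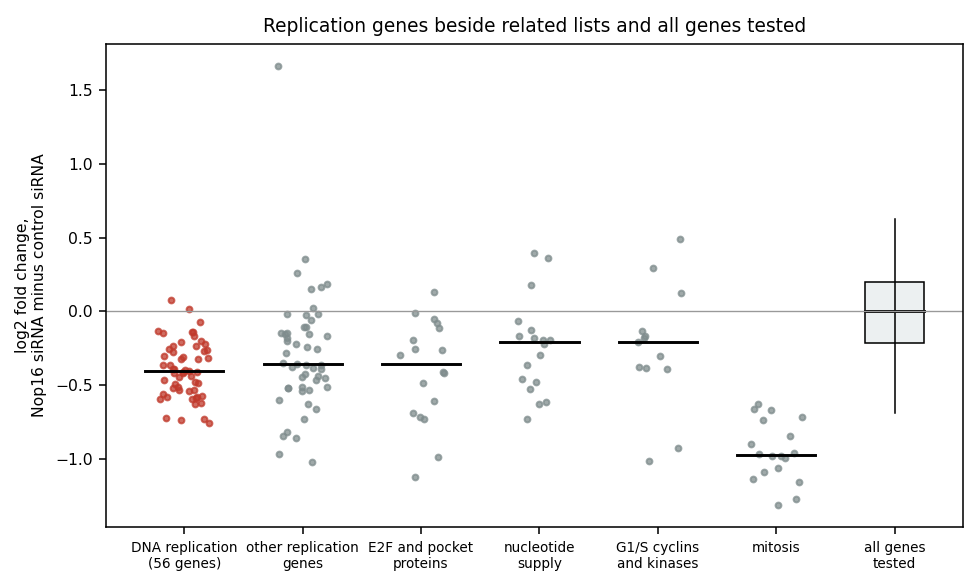
Log2 fold change (Nop16 siRNA minus control siRNA) of each tested gene in the replication list (red), in 5 related lists (grey), and over all genes tested, where the box spans the interquartile range and the line the 5th to 95th percentile; black bars are medians. The replication genes cluster around -0.41 with a narrow spread, the mitotic genes around -0.97, and the median of all genes lies at 0.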

How the data were processed

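RNA-seq of 6 RAW264.7 libraries, 3 with Nop16 siRNA and 3 with control siRNA, was taken from the deposited table of counts of each library. Reads were trimmed with Trim Galore and aligned with HISAT2 2.2.1, per the submitters' processing notes. The deposited counts are whole fragments per gene from featureCounts 2.0.1, per the file headers, in pairs, by strand (setting 2), with multi-mapped and multi-overlapping fragments counted and at least 10 bases of overlap, over a filtered Ensembl release 101 annotation of GRCm38. Counting multi-mapped fragments can add reads of pseudogene copies to a gene. Symbols came from GENCODE M21, which matched 55141 of 55401 identifiers. One listed gene, Chtf8, maps to more than 1 identifier and was left out.

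Genes were kept by filterByExpr in edgeR 4.0.16, scaled by TMM and tested with the quasi-likelihood test (robust, no covariates, all 6 libraries), with Benjamini-Hochberg adjustment over all 14269 genes tested and a threshold of 0.05. The test was checked on simulated data with known changes. Smaller changes were planted as well, but recovery was required only at a fold larger than that of any member. The requirement therefore does not cover small falls. It also allowed a larger share of false calls than the threshold of 0.05. CPM is counts per 1000000 of the library size scaled by TMM. TPM uses the deposited gene lengths over all genes in a library. A floor of 3 counts is 0.13 to 0.192 CPM, and all members lay well above it. Such floors cover counting error only. Libraries of a group differed by more than sampling noise (chi-square per degree of freedom 2.52 to 3.12 within groups, and 45.5 to 52.5 between them), so each was kept as a sample. Partner ratios were the log2 ratio of counts plus 0.5 within a library, compared by exact two-sided permutation over libraries.

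Every member may be named. Values per library are given for every MCM2-7 gene, the 2 largest changes in each other role group, members of the 5 partner pairs and members that did not pass. Of each other list the 4 largest changes and every gene that went against most of its list are named. Pold4, Pole3 and Pole4 are named as well, as polymerase subunits outside the members. The members and lists were chosen with earlier results of these data known. The alternatives were scaling by RLE, upper quartile or library size only, DESeq2 1.42.0, limma-voom 3.58.1, no filter, at least 5 CPM in 3 libraries, robust dispersion off, a replicate block, a minimum fold of 1.2, each library left out in turn, thinning to equal depth, and protein-coding genes only. Promoter windows came from RefSeq on GRCm38.p6. One list of cell type markers is not reported here.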

Additional observations from a re-analysis of the deposited data

How the results depend on the processing

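Of 1008 recomputed calls of single members, 962 kept their direction and side of the threshold, and 32 members did so under every alternative. The count of members lower was 47 with DESeq2, 48 after thinning, 49 with no filter, 51 with library size only or protein-coding genes only, and 50 with RLE, upper quartile, limma-voom, the 5 CPM filter or robust dispersion off. None was higher under any of these. Against a minimum fold of 1.2, a stricter question, 29 members were lower, 21 other replication genes were lower and 1 higher, 8 E2F and pocket protein genes were lower, 6 nucleotide supply genes were lower and 1 higher, and 3 G1/S genes were lower and 1 higher. With at least 5 CPM in 3 libraries, 1 E2F or pocket protein gene was higher. Leaving out each library in turn gave 47 to 49 members lower and 0 higher, 33 to 36 other replication genes lower and 3 to 5 higher, 12 to 13 E2F and pocket protein genes lower and 0 to 1 higher (1 without Nop16 siRNA replicate 2), 10 to 12 nucleotide supply genes lower and 2 higher, 18 mitotic genes lower, and 9 to 10 G1/S genes lower and 3 higher. The same runs gave log2 ratio differences of -0.0329 to 0.0565 for Cdt1 to Gmnn (0.0036 with all 6 libraries), -0.4933 to -0.2260 for Dbf4 to Cdc7, 0.0171 to 0.0451 for Timeless to Tipin, -0.1512 to -0.0878 for Chaf1a to Chaf1b and -0.0764 to 0.0417 for Pole to Pold1. After thinning, Cdt1 to Gmnn was -0.0548 (exact permutation p = 0.3) and Timeless to Tipin -0.0033 (0.9), both of the other sign than with all reads. The Orc4 log2 fold change was -0.0051 with library size only and -0.0739 to 0.0997 with each library left out in turn, below 0 without Nop16 siRNA replicate 2 (-0.0739) or control siRNA replicate 3 (-0.0041), and the cause was not tested. Replicate numbers did not pair the libraries: the deviations of same-numbered libraries correlated at 0.0175, -0.0198 and -0.0223. With the replicate block 50 members were lower and 0 higher. Every member had at least 5 CPM in 3 libraries. Depth still differed by group, with each Nop16 siRNA library below each control siRNA library. After thinning to equal depth, the calls of Rpa3 (edgeR adjusted p = 0.0713) and Fen1 (0.0711) were lost.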
